A study of Mus musculus with 42 samples.

Results

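Calpains are calcium-dependent cysteine proteases, and their transcripts were followed here in disused mouse muscle through 5 genes: the catalytic subunits Capn1, Capn2 and Capn3, the regulatory subunit Capns1 and the calpain inhibitor calpastatin (Cast). They were chosen by name, and all 5 were found among the 13809 genes of the expression table and passed the filter on low values. The data are RNAseq of the tibialis anterior (TA), a muscle at the front of the lower leg, of male C57BL/6J mice aged 4 months, in 42 libraries, 11 groups and 2 sequencing sets. In set 1, 22 libraries came from WT muscle and from muscle of the transgenic lines Sesn1 SkM-Tg and Sesn2 SkM-Tg, each basal (from mice with no atrophy treatment) or after 3 days of immobilization, in which a splint and bandage kept 1 hind leg from moving. In set 2, 20 libraries came from WT and Sesn1 KO muscle, basal or immobilized in that way, and of WT muscle 3 days after denervation, the removal of a piece of the sciatic nerve. Groups had 4 libraries, except immobilized WT muscle of set 1 and immobilized Sesn1 SkM-Tg muscle with 3. Sestrins are stress-inducible regulators of growth signalling: Sesn1 SkM-Tg mice carry human Sesn1 under the muscle creatine kinase (MCK) promoter, Sesn2 SkM-Tg mice carry a tetracycline-regulated Sesn2 driven by an MCK transactivator, and Sesn1 KO mice are a knockout of the gene, in which the deleted part is not given in the sources used here. The labels number the libraries without naming the animal behind each, so the p-values below measure the spread between libraries.

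Capn1 (mu-calpain) and Capn2 (m-calpain) each pair with the small subunit Capns1 to form the conventional calpains, which differ in the calcium concentration they need. Calpastatin binds and inhibits these heterodimers only. Capn3, the muscle calpain, does not use Capns1, is anchored to titin in the sarcomere, and its loss causes a limb-girdle muscular dystrophy. In wasting muscle, calpains are regarded as proteases that release proteins from myofibrils ahead of proteasomal degradation. Their activity depends on calcium, cleavage and binding partners, none of which RNA levels measure.

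The genes lie on separate chromosomes of GRCm38 by the GENCODE M21 annotation: Capn1 on chromosome 19 (5988545 to 6015897, minus strand), Capn2 on 1 (182467260 to 182517608, minus), Capn3 on 2 (120456019 to 120504913, plus), Capns1 on 7 (30186936 to 30198811, minus) and Cast on 13 (74692368 to 74808810, minus). The 3 catalytic subunits are related in sequence, which matters for reading their RNA levels apart. Shown next is the 36-base coding stretch around the catalytic cysteine of each, one of the most alike regions of the family, with the cysteine codon in capitals, at bases 421 to 456 of transcript Capn1-201, 459 to 494 of Capn2-201 and 655 to 690 of Capn3-202.
Capn1: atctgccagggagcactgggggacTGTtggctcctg
Capn2: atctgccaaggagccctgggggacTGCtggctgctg
Capn3: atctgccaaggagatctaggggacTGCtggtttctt
Of these 36 bases, 32 were identical between Capn1 and Capn2, 30 between Capn2 and Capn3 and 28 between Capn1 and Capn3. Even so, over all annotated transcripts 0 words of 30 bases were shared between any pair of the 5 genes. Overlap with other genes was larger. An antisense gene, Gm37885, covers 27.1% of the exon bases of Capn2 and Gm10814 covers 11.8% of those of Capn1, and Gm26810 covers 8.16% of those of Capns1, while Ganc on the same strand shares 7.68% of those of Capn3 and Erap1 on the opposite strand 7.27% of those of Cast. The library kit is not stated to keep the strand, so reads from these stretches cannot be told apart.

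For the member that fell furthest and a catalytic subunit that rose, the 250 bases before a RefSeq start (GRCm38.p6) are shown, with any match to the motifs searched for FoxO (GTAAACA), MEF2 (CTA, any 4 bases, TAG) or the GC box (GGGCGG), on either strand, in capitals. The Capn3 window is chr2:120463343-120463592 on the plus strand, the first of 2 RefSeq windows of the gene, and the Capn2 window is chr1:182517611-182517860 on the minus strand.
Capn3: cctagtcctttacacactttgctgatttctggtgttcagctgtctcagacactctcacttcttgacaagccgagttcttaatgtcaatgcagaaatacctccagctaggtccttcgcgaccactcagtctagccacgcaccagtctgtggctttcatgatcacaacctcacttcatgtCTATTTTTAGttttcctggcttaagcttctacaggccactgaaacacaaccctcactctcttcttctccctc
Capn2: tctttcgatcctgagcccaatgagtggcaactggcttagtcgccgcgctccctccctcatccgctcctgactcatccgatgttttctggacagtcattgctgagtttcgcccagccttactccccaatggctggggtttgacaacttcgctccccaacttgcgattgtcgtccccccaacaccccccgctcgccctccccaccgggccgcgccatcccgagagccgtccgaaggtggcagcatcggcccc
The capitals in the Capn3 window are a match to the motif of MEF2, a transcription factor of muscle genes, 72 bases before the start. Such a match was present in 3.2% of the 32851 RefSeq promoter windows of this length. The Capn2 window held no match to the 3 motifs, 19 CpG dinucleotides and 62.8% G and C, while the Capn3 window held 4 CpG and 46.8% (medians of all windows 6.0 and 52.4%). The other Capn3 window, chr2:120476659-120476908, held no MEF2 match, 3 CpG and 57.6% G and C. The FoxO motif, of the factors that drive many atrophy genes and present in 3.17% of all windows, had no match in any of the 10 RefSeq windows of the 5 genes. The E-box CANNTG, bound by the myogenic factors, was present once in each window shown but also in 66.2% of all windows. These are matches of letters and say nothing of binding.

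The unit is the normalized count deposited by the authors, a linear value close in size to a CPM, and no read numbers come with it, so the depth behind each value is unknown. Library sums ran from 722430 to 1276769, with those in denervated muscle (722430 to 811541) below those in basal muscle of set 2 (1042064 to 1149252), and the correlation of log2 values between replicates was 0.959 to 0.991. The sets look adjusted to each other gene by gene, so levels were compared within a set. The targeted gene was checked first: Sesn1 had a median of 9.05 in basal libraries labelled Sesn1 KO against 25.5 in WT, without overlap, but after immobilization it lay at 19.4 to 37.3 against 30.7 to 53.1, where the groups overlapped. Sesn1 KO therefore stands for the libraries labelled so. Values for Sesn1 in Sesn1 SkM-Tg libraries (23.0 to 77.6) and for Sesn2 in Sesn2 SkM-Tg libraries (6.54 to 14.5) were above every WT library of set 1 (12.4 to 22.1 and 1.86 to 3.39). Markers of muscle fibres were abundant in every library (Ckm 7661 to 29540, Acta1 13620 to 31360).

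Capn1 and Capn3 fell, and Capn2 rose, in all 6 comparisons of disused with basal muscle of the same genotype and set. Changes are differences of log2(value + 1) fitted with limma over all genes tested and all groups of a set. A gene was called, and is said to have risen or fallen, where its Benjamini-Hochberg adjusted p was below 0.05 and its log2 fold change was 0.25 or more in size. After immobilization 3 of the 5 genes were called in WT muscle of set 1, where 29.3% of all tested genes were, 3 of 5 in Sesn1 SkM-Tg (34.7% of all genes), 4 of 5 in Sesn2 SkM-Tg (30.7%), 5 of 5 in WT muscle of set 2 (33.9%) and 5 of 5 in Sesn1 KO (37.1%). After denervation 4 of 5 were called, where 55.5% of all genes were. Capns1 and Cast account for the differences between these counts.

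**Figure D1:**
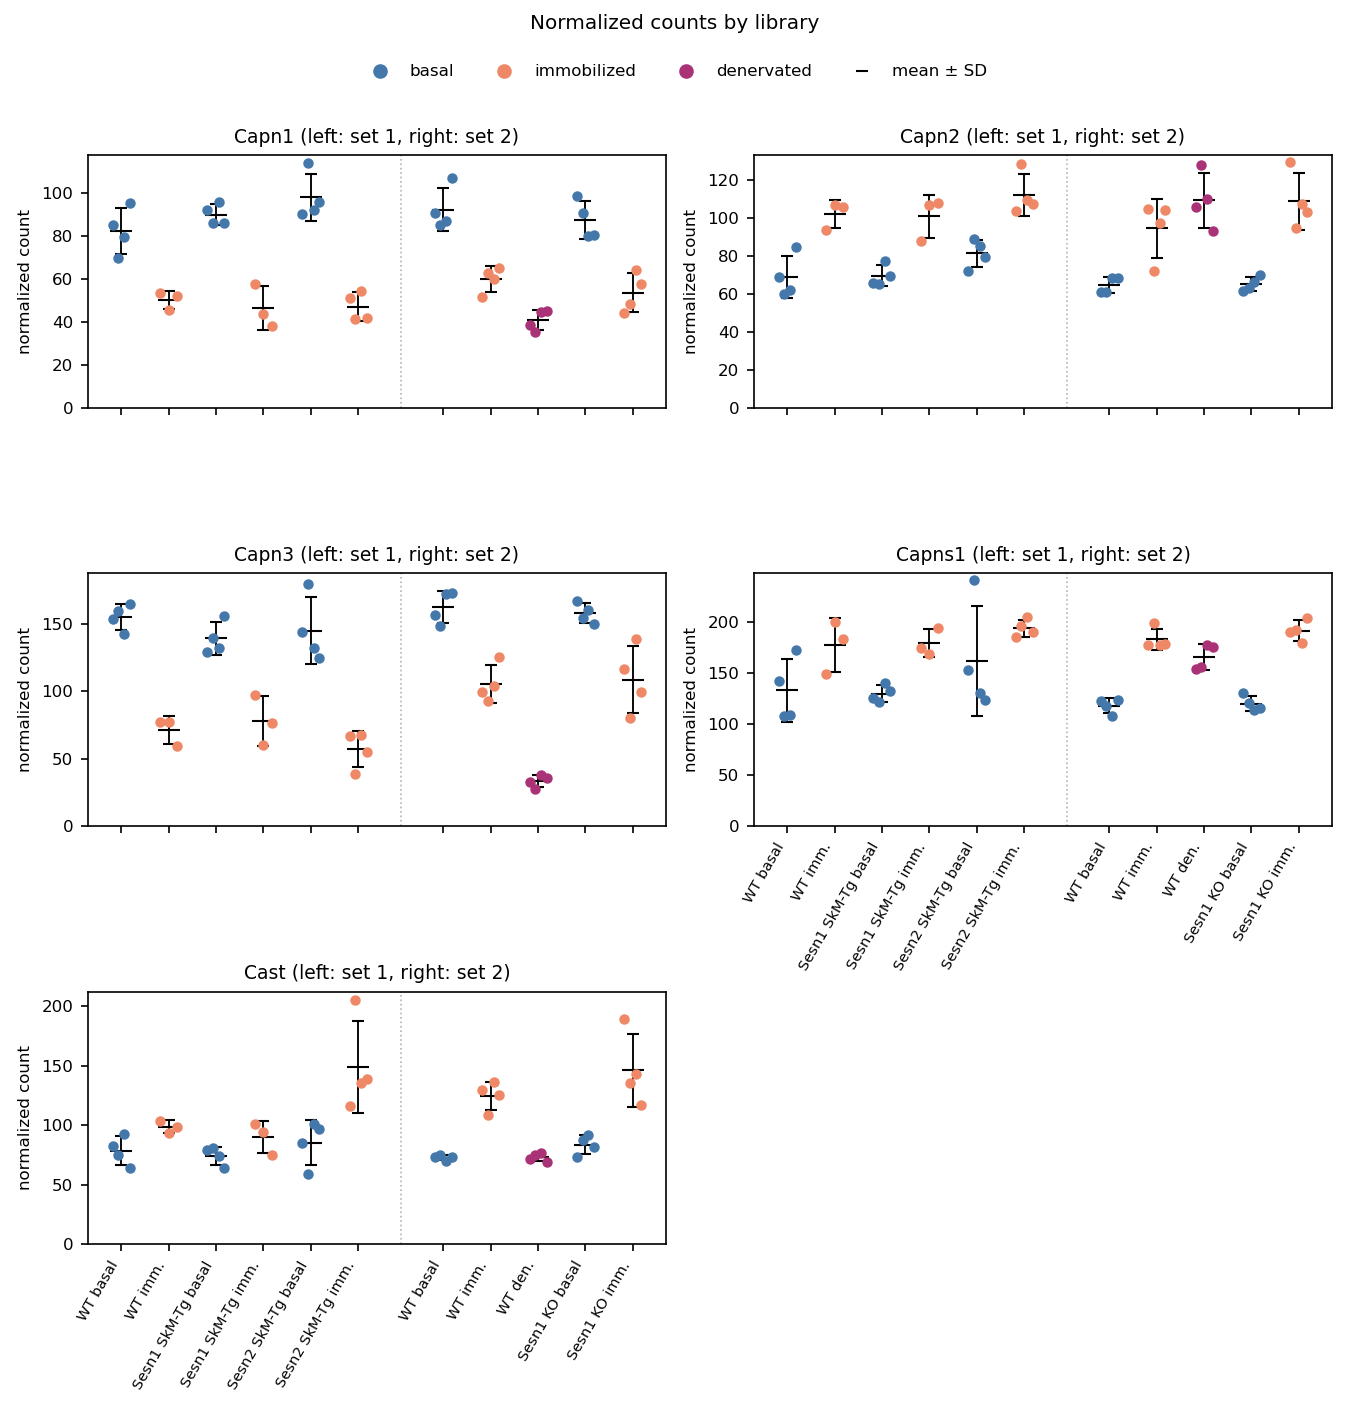
Normalized counts (y axis, linear) of the 5 genes in each of the 11 groups (x axis; set 1 left and set 2 right of the dotted line). Points are libraries, bars the mean and SD. Capn1 and Capn3 lie lower and Capn2 higher in immobilized (imm.) and denervated (den.) than in basal libraries of the same genotype and set. Cast in denervated muscle lies within 69.2 to 76.7, over its basal 69.6 to 74.7 in WT muscle of set 2 on the deposited scale.

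Capn1 was the calpain that fell among the conventional pair. In set 2, basal WT muscle gave 90.7, 85.1, 86.8 and 107 normalized counts, immobilized WT muscle 51.4, 62.9, 60.1 and 65.1, and denervated WT muscle 38.4, 35.4, 44.8 and 44.8. The 3 groups did not overlap, in the order basal, immobilized, denervated. The log2 fold change was -0.62 (standard error 0.12, limma adjusted p = 0.00038) with immobilization and -1.16 (standard error 0.12, adjusted p = 4.7e-08) with denervation. Denervated muscle was lower than immobilized muscle by a log2 fold change of -0.54 (adjusted p = 0.00098), in a comparison that called 3 of the 5 genes and 38.9% of all genes, and by -0.21 (adjusted p = 0.13) where libraries were rescaled to equal sums. In set 1, WT muscle gave 85.0, 69.8, 79.4 and 95.4 normalized counts when basal and 53.5, 45.6 and 52.0 when immobilized (-0.69, adjusted p = 0.0014). Sesn1 SkM-Tg muscle went from 90.0 ± 4.77 to 46.5 ± 10.1 (mean ± SD, n = 4 and 3; -0.96), Sesn2 SkM-Tg muscle from 98.0 ± 10.8 to 47.1 ± 6.79 (-1.05) and Sesn1 KO muscle from 87.4 ± 8.98 to 53.6 ± 9.11 (-0.71). No immobilized or denervated library reached the lowest basal library of its set. The level in bulk muscle falls alike with less RNA per fibre and with a smaller share of fibres, and these cannot be told apart here.

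Capn2 moved the other way. Basal WT muscle of set 2 held 61.0, 61.1, 68.4 and 68.5 normalized counts, immobilized WT muscle 104, 71.9, 97.1 and 104, and denervated WT muscle 106, 128, 109.9 and 92.9. All disused libraries lay above the basal ones, the immobilized library of replicate 2 only just. The log2 fold change was 0.52 (standard error 0.12, limma adjusted p = 0.0016) with immobilization and 0.74 (standard error 0.12, adjusted p = 1.8e-05) with denervation. The difference between denervated and immobilized muscle was 0.21 (95% interval -0.03 to 0.46, adjusted p = 0.16), and 0.55 (adjusted p = 0.00075) with libraries rescaled to equal sums. In WT muscle of set 1 the values were 68.6, 60.03, 61.9 and 84.7 when basal and 93.3, 107 and 106 when immobilized (0.57, adjusted p = 0.0025), again without overlap. The other log2 fold changes with immobilization were 0.53 in Sesn1 SkM-Tg (69.4 ± 5.599 to 100.7 ± 11.2), 0.46 in Sesn2 SkM-Tg (81.3 ± 7.28 to 112 ± 10.98) and 0.72 in Sesn1 KO muscle (65.0 ± 3.72 to 109 ± 14.9). In denervated muscle the rise of Capn2 stood beside lower summed levels of the endothelial (123 to 161 against 250 to 321 in basal WT muscle), smooth muscle (32.7 to 47.6 against 100 to 111) and Schwann cell markers (15.9 to 21.7 against 37.6 to 64.2). In immobilized WT muscle of set 1 the rise of Capn2 stood beside higher levels of the same lists, at 221 to 255 against 161 to 218 in basal muscle for endothelial markers. Smooth muscle markers lay at 85.3 to 156 against 39.3 to 62.8, and Schwann cell markers at 48.2 to 81.7 against 16.4 to 29.99. Their medians were also higher in immobilized than basal muscle of both transgenic lines, for endothelial markers at 263 against 179 in Sesn1 SkM-Tg and 307 against 154 in Sesn2 SkM-Tg. In immobilized WT muscle of set 2 endothelial (139 to 227) and smooth muscle markers (34.1 to 70.75) lay below the basal range. Schwann cell markers (29.1 to 46.35) had a lower median and overlapped it. In Sesn1 KO muscle the medians after immobilization were lower for endothelial (181 against 239.8) and Schwann cell markers (34.9 against 53.0). The smooth muscle median there was higher (92.4 against 85.5). The part of these markers in the rise was not tested.

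Because one subunit fell while the other rose, their ratio turned over. Per kilobase of the longest protein-coding transcript, Capn2 lay below Capn1 in every basal library and above it in every immobilized or denervated library. Basal group means of the Capn2 to Capn1 ratio were 0.732 to 0.791 in set 1 and 0.669 to 0.714 in set 2. In WT muscle of set 2 the ratio was 0.638, 0.682, 0.747 and 0.607 in basal libraries, 1.93, 1.08, 1.53 and 1.52 in immobilized libraries and 2.61, 3.44, 2.33 and 1.97 in denervated libraries. These ratios are within a library and do not depend on the scaling of whole libraries. The point at which they pass 1 depends on the lengths used and on any adjustment of the sets gene by gene. With the length of all exons together, the denervated libraries lay at 1.09 to 1.91 and the immobilized WT libraries of set 2 at 0.602 to 1.07. The sum of Capn1 and Capn2, which does depend on scaling, had group means of 147 to 179 normalized counts over the 11 groups. In WT muscle of set 2 it was 157 ± 12.8 when basal, 154 ± 14.3 when immobilized and 149.99 ± 11.4 when denervated (n = 4 each). With libraries rescaled to a sum of 1000000 it was 146 ± 12.1, 157 ± 15.7 and 193 ± 16.8, and the denervated libraries (171 to 211) lay above the basal ones (133 to 161). Ratios and sums over the genes are given as descriptions, without a test.

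**Figure D2:**
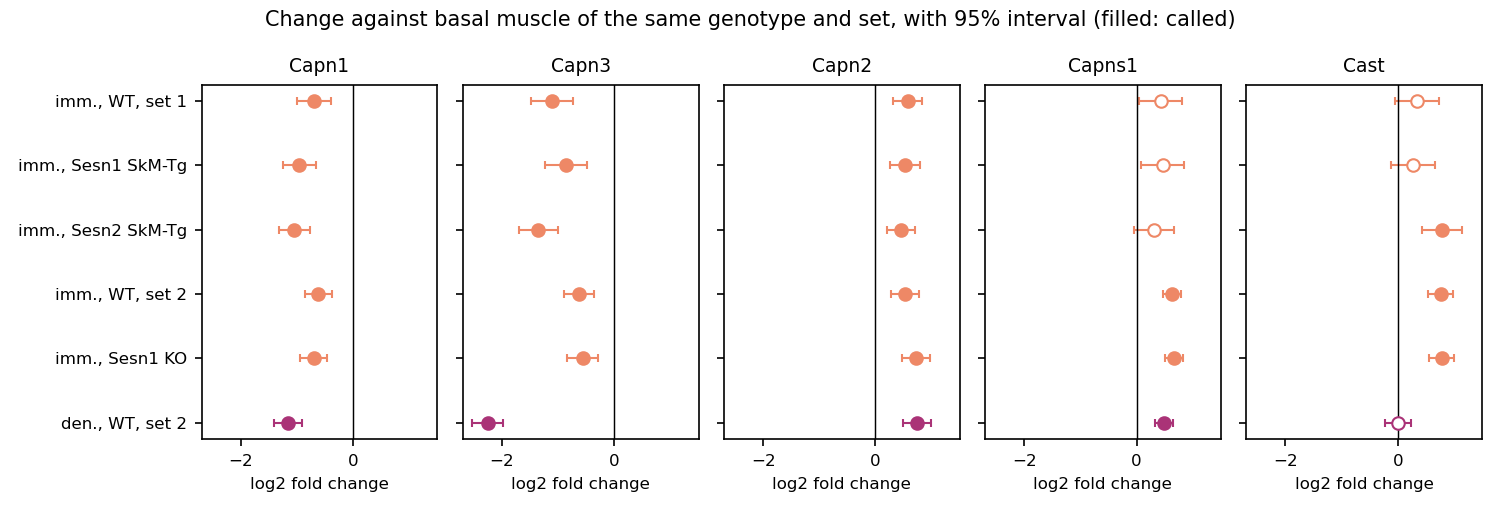
Log2 fold change (x axis) with its 95% interval for each gene, against basal muscle of the same genotype and set; rows are 5 immobilization comparisons and denervation (den.), and filled points were called. Capn1 and Capn3 lie left of 0 and Capn2 right of 0 in each row, and Cast lies at 0.00 with denervation on the deposited scale (0.46 with libraries rescaled to equal sums).

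Capns1, the small subunit both conventional calpains need, followed Capn2 rather than Capn1. In set 2 it rose from 122, 117, 108 and 124 normalized counts in basal WT muscle to 177, 199, 177 and 179 after immobilization and 154, 155, 178 and 175 after denervation. All disused libraries lay above all basal ones, and the disused groups overlapped each other. The log2 fold changes were 0.63 (standard error 0.08, limma adjusted p = 2.3e-06) and 0.49 (standard error 0.08, adjusted p = 1.4e-05), and Sesn1 KO muscle gave 0.67 with immobilization (120 ± 7.47 to 191 ± 10.03, adjusted p = 6.9e-07). In set 1 the values were less even: basal WT muscle held 142, 108, 109 and 173 and immobilized WT muscle 149, 200.0 and 183. Basal Sesn2 SkM-Tg muscle held 153, 241, 131 and 124, and the library at 241 had the highest sum of all 42 libraries. No comparison of set 1 passed the threshold for Capns1, with log2 fold changes of 0.43 in WT (adjusted p = 0.084), 0.46 in Sesn1 SkM-Tg (adjusted p = 0.059) and 0.31 in Sesn2 SkM-Tg (adjusted p = 0.18). Without replicate 4 of basal WT muscle of set 1 (173 normalized counts) it was called at 0.57 (adjusted p = 0.024), and without replicate 2 of basal Sesn2 SkM-Tg muscle (241) at 0.52 (adjusted p = 0.0088). With libraries rescaled to equal sums it was called in all 3 comparisons (0.77, 0.77 and 0.62).

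Calpastatin separated the disuse models. In WT muscle of set 2, Cast held 73.5, 74.7, 69.6 and 73.6 normalized counts when basal and 129, 108, 136 and 125 when immobilized, with no overlap (log2 fold change 0.76, standard error 0.11, limma adjusted p = 2.0e-05). Denervated muscle held 71.3, 74.6, 76.7 and 69.2, which overlapped the basal values. The fold change there was 0.00 on the log2 scale with a 95% interval of -0.23 to 0.23 (adjusted p = 0.99), and 0.46 (adjusted p = 0.00078) where libraries were rescaled to equal sums. Denervated muscle was lower than immobilized muscle by -0.76 (standard error 0.11, adjusted p = 1.3e-05), a difference that kept its call under every alternative run. Cast also rose with immobilization in Sesn1 KO muscle, from 83.6 ± 7.71 to 146 ± 30.6 (0.78, adjusted p = 1.1e-05), and in Sesn2 SkM-Tg muscle, from 85.4 ± 19.0 to 149 ± 38.8 (0.79, adjusted p = 0.0017). In WT muscle of set 1 the values were 82.9, 74.8, 92.3 and 63.7 against 104, 93.0 and 98.8 after immobilization, apart from each other but not past the threshold (0.34, adjusted p = 0.18, or 0.67 with adjusted p = 0.024 after rescaling to equal sums). In Sesn1 SkM-Tg muscle the groups overlapped (74.4 ± 7.50 against 90.2 ± 13.5; 0.27, adjusted p = 0.28).

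Set against its targets within a library, calpastatin can be read without the scaling of whole libraries. The ratio of Cast to the sum of Capn1 and Capn2, per kilobase, was 0.294, 0.311, 0.273 and 0.255 in basal WT muscle of set 2, 0.512, 0.491, 0.531 and 0.456 after immobilization, and 0.306, 0.283, 0.306 and 0.310 after denervation. The immobilized libraries stood apart, and the denervated ones overlapped the basal range. An unchanged ratio does not tell whether both of its parts rose. With libraries rescaled to equal sums, Cast was called higher with denervation (0.46), and the sum of Capn1 and Capn2 went from 146 to 193. In Sesn1 KO muscle the ratio went from 0.335 ± 0.0421 to 0.554 ± 0.0974 and in Sesn2 SkM-Tg muscle from 0.295 ± 0.0798 to 0.574 ± 0.126. Smaller differences were measured in Sesn1 SkM-Tg (0.285 ± 0.0350 to 0.378 ± 0.0549) and in WT muscle of set 1 (0.323 ± 0.0771 to 0.399 ± 0.0314). In both of these the basal and immobilized libraries overlapped. The ratio of Capns1 to the same sum had group means of 1.59 to 1.75 in basal and 2.30 to 2.42 in immobilized muscle of set 1. In set 2 they were 1.47 to 1.54 in basal muscle and 2.20 to 2.37 in the disused groups, denervation included.

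**Figure D3:**
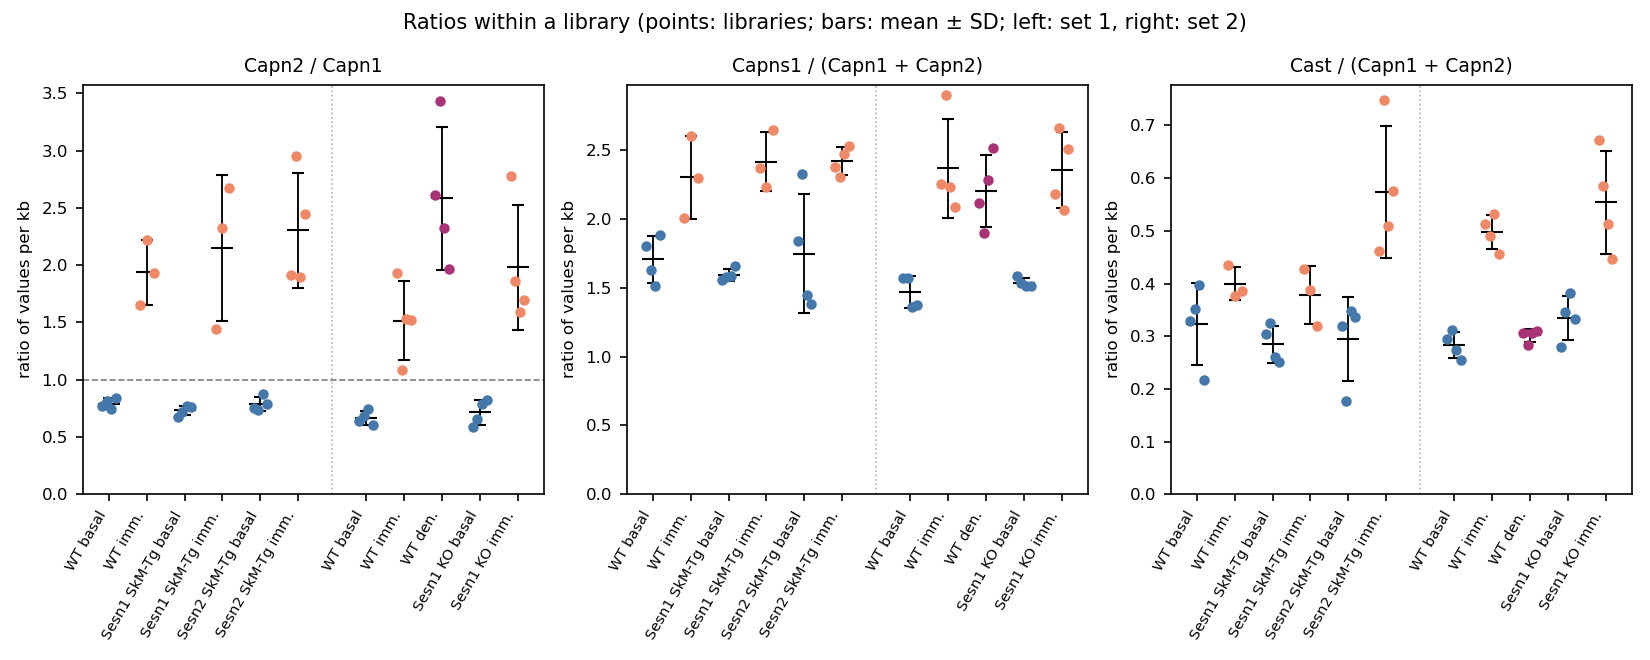
Ratios of values per kilobase within a library (y axes, linear from 0) for Capn2 to Capn1, Capns1 to Capn1 plus Capn2, and Cast to Capn1 plus Capn2, in 11 groups (x axis; set 1 left, set 2 right of the dotted line); points are libraries, bars the mean and SD, and the dashed line marks 1. The group means of the first 2 ratios are higher in each disused group, and the third is at 0.301 ± 0.0123 in denervated muscle against 0.498 ± 0.0324 in immobilized WT muscle of set 2.

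Capn3 fell furthest of the 5 genes with denervation, and changed more than the other 4 with immobilization in WT muscle of set 1 and in Sesn2 SkM-Tg muscle, but not in the other 3 immobilization comparisons. In set 2, basal WT muscle held 157, 149, 172 and 173 normalized counts, immobilized WT muscle 99.4, 92.9, 104 and 126, and denervated WT muscle 32.5, 27.7, 37.7 and 36.0. The groups did not overlap. The log2 fold change was -2.25 (standard error 0.13, limma adjusted p = 1.3e-11) with denervation, -0.63 (standard error 0.13, adjusted p = 0.00089) with immobilization, and -1.63 (adjusted p = 5.8e-09) between denervated and immobilized muscle. In set 1, WT muscle went from 154, 159.7, 142 and 165 to 76.9, 77.6 and 59.5 (-1.12, adjusted p = 0.00019). Sesn2 SkM-Tg muscle went from 145 ± 24.6 to 57.1 ± 13.5 (-1.35), Sesn1 SkM-Tg muscle from 139 ± 12.2 to 77.8 ± 18.7 (-0.86) and Sesn1 KO muscle from 158 ± 7.44 to 109 ± 25.2 (-0.56, adjusted p = 0.0019). Markers of muscle fibres moved with Capn3: their summed level over 8 of 8 genes was 130900 to 145600 in basal WT muscle of set 2, 116600 to 126700 after immobilization and 54770 to 71280 after denervation, and its part in the result was not tested.

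The order of levels per kilobase changed with these shifts. It depends on the lengths used and on any adjustment of the sets gene by gene. In all 5 basal groups the order was Capns1, Capn3, Capn1, Capn2 and Cast from high to low, and Capn3 lay above Capn1 in each basal library. In denervated muscle it was Capns1, Capn2, Cast, Capn1 and Capn3, with Capn3 below Capn1 in 4 of 4 libraries. After immobilization Capn1 was the lowest of the group means in each of the 5 groups. There, Capn2 lay above Capn3 in 3 of 3 WT, 2 of 3 Sesn1 SkM-Tg and 4 of 4 Sesn2 SkM-Tg libraries of set 1, and in 1 of 4 WT and 3 of 4 Sesn1 KO libraries of set 2.

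No genotype changed any of the 5 genes by the test. Each genotype was compared with the WT muscle of its set and state, so the comparisons share WT libraries. None of the 5 was called in Sesn1 SkM-Tg against WT, basal or immobilized (0.0292% and 0.0073% of all genes called), in Sesn2 SkM-Tg against WT (2.5% and 2.94%), or in Sesn1 KO against WT (0.147% and 0.947%). The largest difference was that of Cast in immobilized Sesn2 SkM-Tg muscle, 0.56 above WT (95% interval 0.17 to 0.95, limma adjusted p = 0.11), with all 4 Sesn2 SkM-Tg libraries (116, 205, 135 and 139 normalized counts) above the 3 WT libraries. In basal Sesn2 SkM-Tg muscle Capn1 and Capn2 were each 0.25 above WT, with intervals of -0.02 to 0.53 and 0.00 to 0.49 (adjusted p = 0.38 and 0.32). For Sesn1 KO against WT the log2 differences of the 5 genes lay between -0.08 and 0.19 in basal and between -0.17 and 0.21 in immobilized muscle. The intervals reached at most 0.45 from 0, so larger differences were outside them.

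The effect of immobilization itself was tested for a difference between genotypes, and none of the 5 genes passed. For Sesn1 SkM-Tg minus WT, where 0% of all genes were called (0 genes by limma, with 401 at an unadjusted p under 0.05), the largest difference was that of Capn1, -0.27 (95% interval -0.69 to 0.16). For Sesn2 SkM-Tg minus WT (0.0073% called) it was that of Cast, 0.45 (-0.08 to 0.98), and for Sesn1 KO minus WT (0.022% called) that of Capn2, 0.20 (-0.15 to 0.55). Between the sets, the immobilization effect in WT muscle did not pass the test for any of the 5 genes either (6.2% of all genes called). Capn3 fell further in set 1, by -0.49 (95% interval -0.95 to -0.03, adjusted p = 0.19), and Cast differed by -0.43 (-0.87 to 0.02, adjusted p = 0.25). In WT muscle, Cast and Capns1 were called with immobilization only in set 2, and this is not shown to be particular to that set.

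**Figure D4:**
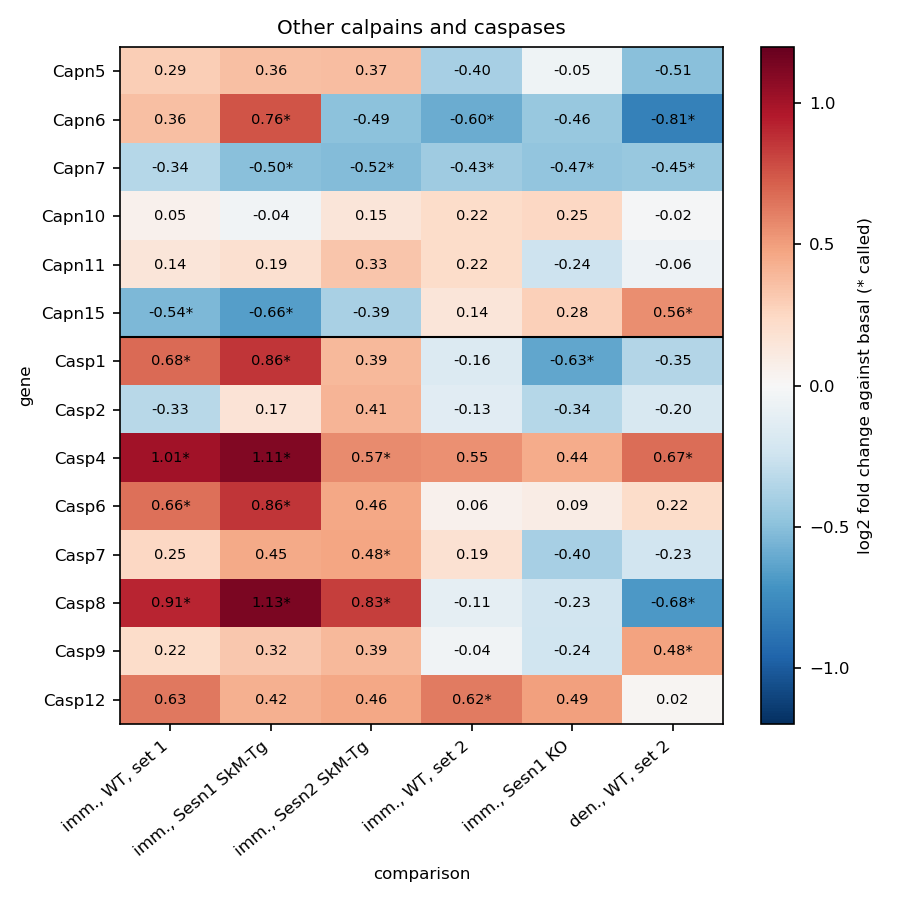
Log2 fold change against basal muscle (colour and number; an asterisk marks a call) of 6 other calpains above the line and 8 caspases below it, in 5 immobilization (imm.) comparisons and denervation (den.). Casp4 was called in 4 of 6 comparisons, Casp8 rose in 3 of set 1 and fell with denervation, and Capn7 fell in 5 of 6 on the deposited scale, of which denervation was at 0.0052 with libraries rescaled to equal sums.

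Caspases are the cysteine proteases of apoptosis and inflammation, and with immobilization more of them were called in set 1 than in set 2. The difference between the sets in the WT immobilization effect was called for 0 of 8 by limma (2 of 8 at an unadjusted p under 0.05), so the sets are not shown to differ. Of 9 caspases, 8 were in the table, and 4, 4 and 3 of them rose with immobilization in WT muscle of set 1 and in Sesn1 SkM-Tg and Sesn2 SkM-Tg muscle, with 0 falling. Over all genes 14.9%, 18.2% and 15.0% rose and 14.5%, 16.5% and 15.7% fell in these comparisons, 16.2% rose and 17.7% fell in WT and 17.2% and 19.9% in Sesn1 KO muscle of set 2, and 27.8% rose and 27.7% fell with denervation. The caspases' median log2 fold changes in set 1 were 0.65, 0.66 and 0.46, against medians of all genes between -0.027 and 0.0028 in the disuse comparisons. In set 2 only Casp12, a caspase tied to the endoplasmic reticulum, rose in WT muscle (0.62), and in Sesn1 KO muscle only the inflammatory Casp1 was called, as a fall (-0.63), with list medians of 0.0065 and -0.23. Casp4, an inflammatory caspase, was the largest rise in WT muscle of set 1 (0.567 to 2.10 normalized counts, 1.01, limma adjusted p = 0.0016). Casp12 lost its call without any of 3 libraries (lowest 0.53, adjusted p = 0.070, without replicate 4 of the immobilized libraries), and Casp1 without replicate 1 of the basal (-0.54, adjusted p = 0.065) or replicate 3 of the immobilized Sesn1 KO libraries (-0.54, adjusted p = 0.058). Casp8, the initiator caspase of death receptors, rose in Sesn1 SkM-Tg (1.13) and Sesn2 SkM-Tg muscle (0.83) and fell with denervation (-0.68), the last at -0.52 (adjusted p = 0.11) without replicate 3 and -0.61 (adjusted p = 0.077) without replicate 2 of the basal libraries, and at -0.61 and -0.57 (adjusted p = 0.077 and 0.089) without replicates 3 and 4 of the denervated libraries. The difference between the sets in the WT immobilization effect on Casp8 was 1.02 (adjusted p = 0.068). After denervation 2 caspases rose and 1 fell (median -0.087). Casp4 was the larger of these rises (0.756 to 1.83 normalized counts, 0.67, adjusted p = 0.028), and its call was lost without any of 5 libraries (weakest 0.52, adjusted p = 0.11, without the third denervated one).

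Levels of other cell types' markers were measured beside these calls. The summed level of 6 macrophage markers (Adgre1 of the list of 7 was not in the table) was 33.5 to 49.7 in basal and 156 to 334 in immobilized WT muscle of set 1, and 27.0 to 126 in basal, 95.5 to 186 in immobilized and 39.96 to 106 in denervated WT muscle of set 2. Neutrophil markers (4 of 4 genes) summed to 0.638 to 1.42 and 1.62 to 41.4 in basal and immobilized WT muscle of set 1, and fibroblast markers (7 of 7 genes) to 462 to 1173 and 929 to 1721. Fibroblast marker medians in basal and immobilized muscle were 584 and 1967 in Sesn1 SkM-Tg and 628 and 580 in Sesn2 SkM-Tg muscle. In WT muscle of set 2 they were 740 when basal, 802 when immobilized and 466 when denervated. Sesn1 KO muscle had 909.5 when basal and 811 when immobilized. Neutrophil markers in WT muscle of set 2 summed to 0.917 to 19.5 when basal, 1.17 to 7.05 when immobilized and 1.92 to 7.82 when denervated. Macrophage marker medians were higher in immobilized than basal muscle in all 5 comparisons. In Sesn1 KO muscle they were 124.5 against 54.4, and the libraries overlapped (50.5 to 294.6 against 37.8 to 63.2). The part of these cell type markers in the caspase calls was not tested. No marker in the table was at 0, but no value of any gene was, so this does not show that a cell type was present.

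Of 11 further calpain genes, 6 were in the table. With immobilization in set 1, 0 rose and 1 fell in WT, 1 and 2 in Sesn1 SkM-Tg and 0 and 1 in Sesn2 SkM-Tg muscle. In set 2 it was 0 and 2 in WT muscle, 0 and 1 in Sesn1 KO muscle, and 1 and 2 with denervation. Over all genes 29.3%, 34.7%, 30.7%, 33.9%, 37.1% and 55.5% were called in these comparisons, in the same order. Capn7, an atypical calpain that lacks the calcium-binding domain of the conventional ones, fell in all disuse comparisons but WT muscle of set 1, by -0.43 to -0.52, but with libraries rescaled to equal sums it was at 0.0052 (adjusted p = 0.97) with denervation and was not called in the transgenic lines. In Sesn1 SkM-Tg muscle its call was lost without any of 5 libraries (weakest -0.39, adjusted p = 0.21, without the third immobilized one). In Sesn2 SkM-Tg muscle its call was lost without any of 4 libraries (weakest -0.46, adjusted p = 0.093, without replicate 2 of the immobilized libraries). Capn15 fell with immobilization in WT (-0.54) and Sesn1 SkM-Tg muscle (-0.66) of set 1 and rose with denervation (0.56). These calls were fragile. With the replicate number as a block, Capn15 in WT muscle of set 1 (adjusted p = 0.069) and Capn6 in Sesn1 SkM-Tg muscle (adjusted p = 0.052) were not called. The Capn15 call in WT muscle of set 1 was lost without 6 of its 7 libraries (weakest -0.41, adjusted p = 0.19, without replicate 2 of the immobilized ones). That of Sesn1 SkM-Tg was lost without replicate 2 of the immobilized libraries (-0.51, adjusted p = 0.092), and that of denervation without any of 3 libraries (weakest 0.46, adjusted p = 0.075, without replicate 3 of the basal ones). Capn6, a calpain without the catalytic cysteine, rose in Sesn1 SkM-Tg muscle (0.76, a call lost without any of 5 libraries, weakest at 0.32 and an adjusted p of 0.41 where the third immobilized library was left out) and fell in WT muscle of set 2 with immobilization (-0.60, also lost without any of 5 libraries, weakest at -0.45 and an adjusted p of 0.14 where the fourth basal library was left out) and with denervation (-0.81). List medians lay between -0.26 and 0.098 in these comparisons.

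Of 14 activators and inhibitors of caspases, all in the table, 3 to 6 rose and 1 or 2 fell in each disuse comparison, with medians between 0.18 and 0.31. Over all genes 14.9% to 27.8% rose and 14.5% to 27.7% fell in these comparisons. Cycs, cytochrome c of the respiratory chain and of the apoptosome, was the largest fall in each, from 150 to 60.5 normalized counts with denervation (-1.30, limma adjusted p = 3.1e-10) and from 150 to 91.6 with immobilization in WT muscle of set 2 (-0.71). In set 1 the falls of Cycs were -0.75, -0.70 and -0.65, and each lost its call when some immobilized libraries were left out: at -0.67 (adjusted p = 0.067) without replicate 3 in WT, at -0.60 (adjusted p = 0.078) without replicate 3 and -0.64 (adjusted p = 0.056) without replicate 2 in Sesn1 SkM-Tg, and at -0.55 (adjusted p = 0.058) without replicate 2 in Sesn2 SkM-Tg muscle, the last also at -0.47 (adjusted p = 0.054) without replicate 2 of its basal libraries. Bak1, a pore-forming protein of the outer mitochondrial membrane, was the largest rise in Sesn2 SkM-Tg (0.92), WT of set 2 (1.10) and Sesn1 KO muscle (0.67). Bid, which caspase 8 cleaves to signal to mitochondria, was the largest rise in WT muscle of set 1 (0.389 to 2.92 normalized counts, 1.45) and after denervation (0.594 to 4.12, 1.68). Birc5 (survivin, a gene of dividing cells) led in Sesn1 SkM-Tg muscle (1.28), a call lost without the third (0.76, adjusted p = 0.14) or the second of the immobilized libraries (1.14, adjusted p = 0.056).

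Of 11 muscle proteins that calpains cleave or bind, all in the table, Flnc was the largest rise in 4 comparisons. Flnc encodes filamin C, a cross-linker of actin at Z-discs, and went from 546 to 2976 normalized counts with immobilization in WT muscle of set 2 (2.43) and from 546 to 1766 with denervation (1.67). It also led in Sesn2 SkM-Tg (2.11) and Sesn1 KO muscle (2.74). Vim, the intermediate filament of mesenchymal cells, led in WT (1.43) and Sesn1 SkM-Tg muscle (1.73) of set 1. Ttn, the giant titin that anchors Capn3, fell furthest in WT (-1.03) and Sesn2 SkM-Tg muscle (-1.24) of set 1, the first lost without any of 5 libraries (weakest -0.84, adjusted p = 0.085, without replicate 2 of the basal ones). Under quantile normalization these falls were -0.45 (adjusted p = 0.38) and -0.86 (adjusted p = 0.062). Cmya5 (myospryn) fell furthest with denervation (3328 to 1201 normalized counts, -1.50) and in Sesn1 SkM-Tg muscle (-0.95, but -0.63 and an adjusted p of 0.16 where the third immobilized library was left out, and -0.83 and 0.060 without the first basal one). The difference between the sets in the WT immobilization effect was called by limma for Flnc, lower in set 1, and for Sptan1, higher in set 1. It was not called for the other 9 genes of the list (6.2% of all genes called). The set 2 values of Flnc and Sptan1 in WT muscle therefore do not stand for both sets. Sptan1, the spectrin whose breakdown marks calpain activity, fell in WT muscle of set 2 (-0.42). With libraries rescaled to equal sums, the falls of Sptan1 there, of Cycs in the 3 comparisons of set 1, of Ttn and Capn15 in WT, of Cmya5, Capn15 and Capn7 in Sesn1 SkM-Tg and of Capn7 in Sesn2 SkM-Tg muscle, of Capn6 in set 2, of Casp8 with denervation and of Casp1 in Sesn1 KO muscle kept their direction but were not called. Of the 11 genes, 3 rose and 1 fell in WT muscle of set 1. In Sesn1 SkM-Tg muscle 5 rose and 3 fell, and in Sesn2 SkM-Tg muscle 3 and 3. In set 2 it was 4 and 1 in WT muscle, 6 and 0 in Sesn1 KO muscle, and 5 and 4 with denervation. The medians, in this order, were 0.10, 0.28, 0.26, 0.36, 0.55 and 0.17. Over all genes, in the same order, 14.9%, 18.2%, 15.0%, 16.2%, 17.2% and 27.8% rose. The shares that fell were 14.5%, 16.5%, 15.7%, 17.7%, 19.9% and 27.7%.

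Across libraries the genes are compared by Pearson's r of log2(value + 1) over the 22 libraries of set 1 and the 20 of set 2, which share groups, treatments and scaling. Capn1 and Capn3 went together (r = 0.90 and 0.87), as did Capn2 and Capns1 (0.83 and 0.77), and Capn1 ran against Capn2 (-0.76 and -0.88). Cast ran against Capn3 in set 1 (-0.81) and not in set 2 (0.17), the set with denervated muscle, and its r with Capns1 was 0.27 and 0.66. Of 7059 genes with a mean of at least 10 in both sets, the 3 most like each gene by the lower of the r of both sets were Rxrg, Bpgm and Ak1 for Capn1 (0.96 each), Hrc, Smco1 and Myoz1 for Capn3 (0.95 each), Ttc9, Tubb6 and Rhoc for Capn2 (0.94 each), Psmb7, Psmb6 and Dctn2 for Capns1 (0.93, 0.92 and 0.92), and Usp28, Nt5c3 and Hbegf for Cast (0.83, 0.82 and 0.82).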

How the data were processed

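Normalized counts of 42 TA muscle libraries were used. Per the study's methods and the submitters' processing notes, the authors trimmed reads with Cutadapt 1.7.1, quantified them with RSEM 1.2.20 on the GRCm38 transcriptome and normalized them with limma. The authors' notes also name edgeR and FastQC. The deposited signal values (normalized counts) are linear, with no value at 0 (lowest 0.00476), and all library columns were used. The genes and gene lists were chosen with earlier results of these data known. Groups and sets came from the sample labels.

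Genes that reached 1 in any library of a set were tested (13705, 13629 and, over both sets, 13763 genes). In limma 3.58.1 (R 4.3.3), log2(value + 1) was fitted with 1 coefficient per group and eBayes with trend. Two-sided p-values were Benjamini-Hochberg adjusted within each of 17 comparisons. The fit was tested on simulated data. Values per kilobase divide by the longest protein-coding transcript of GENCODE M21. By the rule for named genes, the text gives the 5 genes and of each list the called gene with the largest rise and fall in each disuse comparison. Other genes named are from the figure of calpains and caspases. Alternatives were other pseudocounts, filters, scalings and thresholds, only the compared groups, the replicate number as a block, and each library left out. No read counts come with these values, so no count test was run. One gene of the lists is not reported here.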

Additional observations from a re-analysis of the deposited data

Results flagged for a closer look

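In 1 of the 45 groups of 4 libraries tested for a library far from the rest (5 genes), 1 library stood out: immobilized WT muscle of set 2, replicate 2, in which Capns1 was at 198.639 normalized counts, above the other 3 at 177 to 179. Chance flags about 1 in 20 such groups. The same library held the lowest Capn2 of its group (71.9 normalized counts), and the rise of Capns1 in WT muscle of set 2 was called without it as well.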

How the results depend on the processing

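Of 1645 values of the 5 genes under alternatives, over all comparisons, 1633 kept their side of the threshold. This total includes the comparisons of genotypes and of immobilization effects between genotypes or sets. None of the 5 was called in those under any alternative. A reversal was counted only where a value was called, and there was none among the 5 genes. Of the other named genes only Capn7 with denervation reversed, at 0.0052 after rescaling. Rescaling each library to a sum of 1000000 shifted the median log2 fold change of all genes to 0.28, 0.25 and 0.26 for immobilization in set 1 (WT, then Sesn1 SkM-Tg, then Sesn2 SkM-Tg), 0.35 for denervation and 0.26 for denervated against immobilized muscle (0.076 and 0.064 for immobilization in set 2). Under it 5 rather than 3 of the 5 genes were called in WT muscle of set 1: Capns1 was called there (0.77, adjusted p = 0.0017) and in both transgenic lines (0.77 and 0.62), Cast in WT muscle of set 1 (0.67, adjusted p = 0.024) and with denervation (0.46), Capn2 was called higher in denervated than immobilized muscle (0.55), and Capn1 was no longer called lower there (-0.21, adjusted p = 0.13). Quantile normalization called Capns1 in WT (0.57, adjusted p = 0.019) and Sesn1 SkM-Tg muscle (0.66), as did using only the compared groups for the latter (0.46, adjusted p = 0.012). The rises of Cast in set 2 and the changes of Capn1, Capn2 and Capn3 against basal kept their calls in all alternatives run.

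Same-numbered libraries of a set did not deviate together (median correlation 0.037 over 51 pairs in set 1 and -0.029 over 40 pairs in set 2), so the replicate number was not taken as a pairing; with it as a block the counts of the 5 genes called were 3, 3 and 4 in set 1, 5 and 5 in set 2 and 4 with denervation, as before, while Capn15 in WT muscle of set 1 (adjusted p = 0.069) and Capn6 in Sesn1 SkM-Tg muscle (adjusted p = 0.052) lost their calls. Over all genes, the calls in WT muscle of set 1 (4018) went down to 2022 and those in Sesn1 SkM-Tg muscle (4756) to 2794, each without replicate 3 of its immobilized libraries. Sesn2 SkM-Tg against WT gave 103 to 1027 calls in basal (main 343) and 110 to 412 in immobilized muscle (main 403), Sesn1 KO against WT, immobilized, 14 to 609 (main 129), and the difference between sets 375 to 1097 (main 853). Of the other named genes, 57 of 314 values with a library left out and 33 of 410 under other alternatives lost their call. The read depth behind low values, such as those of Casp1, Casp4, Bid and Birc5, is unknown.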
